A study of Mus musculus with 24 samples.

Results

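Genes of DNA replication and of mitosis were followed through 4 experiments in which the growth factor pleiotrophin (PTN) was inhibited. The genes were chosen by symbol from a fixed list of 48, of which 26 act in replication and 22 in mitosis. All 48 were among the 12091 genes of the deposited table, and all 48 passed the filter on low values in each comparison. RNA had been sequenced from 24 samples in 8 groups of 3. In 2 experiments the samples were tumors from mice given the mouse IgG control antibody C44 or the anti-PTN antibody 3B10. In the other 2 they were cultured mammary cancer cells with a short hairpin RNA against Ptn (shPTN) or a control hairpin (shCtrl).

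The 4T1 groups were tumors of the 4T1 mammary carcinoma line, implanted in the mammary fat pad of female BALB/c mice at 8 wk of age. Treatment with C44 or 3B10 at 15 mg/kg, 2 times a week, began when tumors were palpable. The MMTV-PyMT groups were tumors of female FVB/N mice in which the polyoma middle T antigen is driven in mammary epithelium by the mouse mammary tumor virus promoter. These mice received C44 or 3B10 at the same dose and schedule from 8 to 12 wk of age. E0771 is a mammary carcinoma line from C57BL/6 mice, and E0771-LG is a line grown from a lung metastasis of E0771. In each of these lines the shPTN group carried 1 hairpin sequence against Ptn, and the shCtrl group carried the same type of vector (pLKO.1-puro) with a hairpin against EGFP. All 4 groups of cells were under puromycin for 6 wk. With 1 hairpin sequence and populations selected by drug, an effect of the loss of Ptn and one of the hairpin or the selection cannot be told apart. The paper calls the 3 samples of a group biological replicates. How separate the 3 cultures of a group of cells were is not stated, and the p-values measure only the spread between these samples, which may be technical.

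Cells that divide copy their DNA in S phase and separate the copies in mitosis. Before S phase, licensing factors load the MCM helicase on origins. Activating factors then start the helicase, polymerases copy the strands behind a sliding clamp, and ribonucleotide reductase supplies the nucleotides. In mitosis, cyclin B with Cdk1 and the Polo and Aurora kinases build the spindle, the checkpoint waits for attached kinetochores, and the anaphase-promoting complex with Cdc20 and Ube2c marks cyclin B for destruction. Most of these genes are transcribed periodically, under E2F factors around the start of S phase and under the DREAM, B-Myb and FoxM1 complexes later, so their RNA in a tumor or culture is widely read as a sign of dividing cells. In these bulk samples, fewer dividing cells and less RNA per dividing cell cannot be told apart.

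In the MMTV-PyMT and cell samples the deposited values were log2 CPM, from which between 15.63 and 21.12 M reads per sample were recovered (median 18.25). The member with the fewest reads was Fen1, with 85 in an MMTV-PyMT tumor, 145 in an E0771 sample and 122 in an E0771-LG sample. The 4T1 values had no steps of whole reads and were treated as log2 values normalized for gene length, with unknown depth. If that unit is right, only there can levels of different genes be set side by side. Among the replication genes of the C44-treated 4T1 tumors, the mean log2 value was highest for Pcna (6.79), Mcm6 (6.53) and Mcm3 (6.32) and lowest for Mcm10 (2.76), and among the mitosis genes it ran from 6.62 for Top2a to 3.44 for Ttk. Throughout, a gene is called when its limma p, adjusted over all genes tested, is under 0.05, and a fold change is the PTN-inhibited group minus its control on the log2 scale.

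Some libraries stood apart from their replicates. In replicate 1 of the E0771-LG shCtrl cells, 228 genes lay at least 1 log2 unit below both other replicates, against 109 at most in any other sample of cells. They included Mki67, which read 4.77 against 6.71 and 6.78, Cenpe, which read 5.21 against 6.99 and 6.96, and Cenpf, which read 4.65 against 6.66 and 6.70 log2 CPM. The 228 genes had a median exon length of 6453.5 bases, against 4617 for all genes tested. For E0771-LG cells, main counts, medians and calls that moved without this library are therefore given beside those with it. Of the 4T1 tumors, C44 replicate 3 had 196 such genes, Kif11 among them, with a median exon length of 6451.5 bases against 4432 for all genes tested, and 3B10 replicate 1 had 141, with a median of 4677. The 141 included 8 members: Mcm4, Ccne2, Top2a, Bub1b, Cenpe, Cenpf, Kif20a and Tpx2. Among the MMTV-PyMT tumors, 3B10 replicate 3 had 329 such genes and C44 replicate 3 had 264, with no member among them. Genes at least 1 log2 unit above both other replicates came to 130 in E0771-LG shCtrl replicate 2, against 16 at most in any other sample of cells. Among tumors the most was 169, in MMTV-PyMT 3B10 replicate 3, and neither set held a member. Without E0771-LG shCtrl replicate 2, 10 replication genes were called lower in E0771-LG instead of 8.

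The letters of 3 motifs were searched on both strands of the promoters, from 250 bases before to 50 bases after each start, in RefSeq sequences of the build GRCm38.p6. The table held 39 of the 48 members. Mcm4, Gins1, Gins2, Pole, Ccne2, Ccna2, Aurkb, Kif20a and Tpx2 had no entry. A member counted when any of its entries held the letters, and 3 members had more than 1 entry. The share of all promoters is per entry. TTTGAA, the letters of the cell cycle homology region known from late cell cycle genes, was in 13 of 18 mitosis genes (72.2%), 3 of 21 replication genes (14.3%) and 17.9% of all 32851 promoters. CCAAT, the letters bound by NF-Y, was in 16 mitosis genes (88.9%), 12 replication genes (57.1%) and 37.4% of all promoters. TTTNNCGC, letters of an E2F element, was in 1 mitosis gene (5.56%), 11 replication genes (52.4%) and 5.17% of all promoters. Both TTTGAA and CCAAT were in the promoters of 13 mitosis genes and 2 replication genes. A match is a description, not a site or a cause.

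The 150 bases before the start are shown for 6 members to which the results below return. They are both subunits of ribonucleotide reductase, which went apart under the knockdown in E0771, a helicase subunit with E2F letters, and 3 mitosis genes that were called higher in both cell lines. They belong to Rrm1 (ENSMUSG00000030978; chr7:102441545-102441694, plus strand), Rrm2 (ENSMUSG00000020649; chr12:24708104-24708253, plus strand), Mcm6 (ENSMUSG00000026355; chr1:128359706-128359855, minus strand), Ccnb1 (ENSMUSG00000041431; chr13:100786487-100786636, minus strand), Cdc20 (ENSMUSG00000006398; chr4:118437344-118437493, minus strand) and Ube2c (ENSMUSG00000001403; chr2:164769779-164769928, plus strand). Each is written 5′ to 3′ on the strand of its gene, and capitals mark every match to the 3 motifs, on either strand.
Rrm1: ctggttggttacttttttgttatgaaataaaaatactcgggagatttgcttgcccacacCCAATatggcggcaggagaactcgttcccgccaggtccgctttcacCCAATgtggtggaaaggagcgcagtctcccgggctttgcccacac
Rrm2: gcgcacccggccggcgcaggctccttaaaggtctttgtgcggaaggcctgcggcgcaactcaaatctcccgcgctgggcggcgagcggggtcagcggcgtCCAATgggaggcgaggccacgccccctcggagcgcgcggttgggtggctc
Mcm6: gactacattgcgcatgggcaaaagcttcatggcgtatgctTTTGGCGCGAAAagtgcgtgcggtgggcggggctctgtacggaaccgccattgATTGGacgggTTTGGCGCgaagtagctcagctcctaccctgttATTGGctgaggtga
Ccnb1: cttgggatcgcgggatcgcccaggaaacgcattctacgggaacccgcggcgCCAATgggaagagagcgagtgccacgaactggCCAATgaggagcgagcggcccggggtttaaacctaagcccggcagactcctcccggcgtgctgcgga
Cdc20: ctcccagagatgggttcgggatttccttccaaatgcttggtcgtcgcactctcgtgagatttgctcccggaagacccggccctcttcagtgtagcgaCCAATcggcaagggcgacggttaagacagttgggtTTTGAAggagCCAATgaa
Ube2c: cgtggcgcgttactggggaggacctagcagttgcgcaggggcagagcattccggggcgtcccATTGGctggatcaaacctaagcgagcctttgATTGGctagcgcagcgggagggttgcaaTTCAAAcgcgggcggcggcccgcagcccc
In Cdc20, TTTGAA began 18 bases before the start and CCAAT began 8 and 53 bases before it. In Ube2c the same letters stood on the opposite strand, TTTGAA at 29 bases and CCAAT at 57 and 88 bases. Ccnb1 held CCAAT at 67 and 99 bases and no TTTGAA in this window. Rrm1 held CCAAT at 45 and 91 bases, and Rrm2 held it at 50 bases. In Mcm6, TTTNNCGC began at 47 and 110 bases on the gene's strand and at 106 bases on the opposite strand, the last overlapping the match at 110.

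The first question is what the hairpin against Ptn did to these genes in cancer cells with no host tissue around them. In E0771 cells Ptn RNA was at 2.45 ± 0.39 log2 CPM with shCtrl and 0.05 ± 0.60 with shPTN (mean ± SD, n = 3), and limma called it lower by 2.40 (SE 0.37, adjusted p = 0.00159). With it, the large and the small subunit of ribonucleotide reductase moved apart, 8 mitosis genes rose and no mitosis gene fell. Of all 10394 genes tested, 2140 (20.6%) were called, 8.89% higher and 11.7% lower. Of the 48 members, 16 (33.3%) were called, 12 higher and 4 lower. Replication genes made up 4 of those higher and all 4 of those lower, and their median log2 fold change was 0.08. The median of the mitosis genes was 0.30, beside −0.03 for all genes tested.

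Rrm1, the large subunit of ribonucleotide reductase, read 8.72, 8.71 and 8.62 log2 CPM in the shCtrl samples of E0771 and 7.59, 7.73 and 7.64 in the shPTN samples. The groups were about a whole log2 unit apart and did not overlap. The mean was 2.04-fold lower with the knockdown (log2 fold change −1.03, SE 0.08, adjusted p = 1.84e-05). Rrm2, the small subunit that holds the radical and is made in S phase, read 8.14, 7.80 and 7.93 in shCtrl and 8.48, 8.34 and 8.44 in shPTN samples. It was the reverse of Rrm1, with every shPTN sample above every shCtrl sample (log2 fold change 0.46, SE 0.10, adjusted p = 0.00746). Tyms, which makes thymidylate, had a fold change of 0.09 and was not called.

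The other replication genes called in E0771 were spread over several steps. Gins2, a subunit of the GINS complex of the active helicase, was lower, at 4.75 ± 0.38 against 5.51 ± 0.12 (mean ± SD, n = 3), and its shPTN samples read 5.13, 4.38 and 4.73, all under the shCtrl values of 5.49, 5.40 and 5.65. Pola1 and Pole, the catalytic subunits of the priming and the leading strand polymerase, fell alike, each by 0.36 log2 units. Neither was called without shCtrl replicate 2, shCtrl replicate 3 or shPTN replicate 3, or in the fit of all 24 samples. Mcm3 (0.25) of the helicase, Mcm10 (0.39), which helps to start it, and Ccne1 (0.41), the cyclin that drives entry into S phase, rose. None of Mcm3, Mcm10 and Ccne1 was called without shCtrl replicate 3, without shPTN replicate 3 or in the fit of all 24 samples. None of the clamp and clamp loader genes, Pcna (0.03), Rfc3 and Rfc4, was called, nor was Fen1 or Lig1, which join the fragments of the lagging strand. E2f1, the activator of many of these genes, and Mcm2 of the helicase had fold changes of 0.09 and 0.07 and were not called either.

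The mitosis genes called in E0771 came mainly from exit from mitosis, the spindle and the kinases. Ube2c, the ubiquitin-conjugating enzyme of the anaphase-promoting complex, read 7.65, 7.26 and 7.47 log2 CPM in shCtrl and 8.19, 7.74 and 8.12 in shPTN samples. Cdc20, its activator at anaphase, read 7.47, 7.16 and 7.20 in shCtrl and 7.82, 7.51 and 7.72 in shPTN samples. For both genes the lowest shPTN sample was replicate 2, and it still lay above the highest shCtrl sample. Their log2 fold changes were 0.56 (SE 0.13, adjusted p = 0.0135) and 0.41 (SE 0.11, adjusted p = 0.0237). Neither was called without shCtrl replicate 2 or without shPTN replicate 3, and Cdc20 not in the fit of all 24 samples either. Among spindle genes, Nusap1 (0.46), Tpx2 (0.37) and the kinesin Kif20a (0.35) rose, as did the kinases Aurka (0.43) and Plk1 (0.31) and the cyclin Ccnb1 (0.36). Of these, only Nusap1 and Aurka were called without shPTN replicate 3. No gene of the checkpoint and kinetochore group was called, and Mki67 (0.32, adjusted p = 0.108), the gene of the Ki-67 antigen, and Top2a (0.29, adjusted p = 0.0783), which untangles chromosomes, missed the threshold, and Cdk1 had −0.02.

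The 48 genes were set beside lists of related genes. Of 41 other replication genes, 4 rose and 1 fell in E0771 (12.2%, beside 20.6% of all genes), among them Orc1 (0.48) of the origin recognition complex, the helicase Recql4 (0.37) and Pold2 (−0.37) of polymerase delta. Of 46 other mitosis genes tested, 7 rose and 2 fell (19.6%), with Cenpa (0.46), the histone of centromeres, and the kinase Nek2 (0.43) higher and Cep55 (−0.49), which acts in the final cut between daughter cells, lower. The list of G1 cyclins and kinases, genes that govern the step into S phase, moved both ways. Of 8 tested, the D-type cyclins Ccnd1 (0.49) and Ccnd2 (0.64) and the phosphatase Cdc25a (0.53) rose, and Ccnd3 (−0.67) and Myc (−0.51) fell. Of 17 genes for pocket proteins, E2F factors and their partners, 5 rose and 3 fell, with E2f6 (0.86), a repressor, E2f2 (0.68), an activator, and Foxm1 (0.35) higher and the retinoblastoma gene Rb1 (−0.68) and its relative Rbl2 lower. The list of kinase inhibitors also held the kinases Wee1 and Pkmyt1. Of its 6 genes tested, Cdkn2c (0.64) and Cdkn1b (0.59) rose, while Cdkn1a had a fold change of −0.05 and was not called.

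Rrm1 and Gins2 were called in the same direction in all 17 other settings tried, and Rrm2, Aurka and Nusap1 in all but the fit of all 24 samples together. The counts rest on few libraries: without shCtrl replicate 2, shCtrl replicate 3 or shPTN replicate 3, genes called came to 1268, 1164 and 1220, and mitosis genes called higher to 4, 3 and 2. In the fit of all 24 samples they came to 912 and 1. Replication genes called higher came to 2, 1 and 1 without each of these libraries and to 0 in that fit. Those called lower came to 2 each time. Mitosis genes called higher came to 12 without shPTN replicate 1, 10 without shPTN replicate 2 and 15 with the correction for GC content and length.

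Markers of other cells moved with the knockdown in E0771. All 5 fibroblast genes tested of 7 in the list rose. Their summed level was 74.8, 101 and 86.3 CPM in shCtrl and 331, 293 and 330 in shPTN samples. The most reads came from Pdgfra in each shCtrl sample and from Col3a1 in each shPTN sample. Of 5 leukocyte genes tested of 9, 3 rose. Their list summed to 46.4, 62 and 51.5 CPM in shCtrl and 111, 81.7 and 96.4 in shPTN samples. Here Itgb2 had the most reads in each shCtrl sample and Lyz2 in each shPTN sample. Ptprc, the gene of CD45, had at most 10 reads in every one of these samples, as did Adgre1, Csf1r and Cd52. For an epithelial line the keratins were low. Krt8 read between 6.47 and 6.74 log2 CPM, Krt19 and Krt5 had 0 reads in all 6 samples, and Krt18, Krt14 and Cdh1 had at most 10. Of the epithelial list, 2 genes could be tested and none was called, and limma gave 1 at an unadjusted p under 0.05. Neutrophil, skeletal muscle and adipocyte lists had 1 gene each that could be tested, with no call and none at an unadjusted p under 0.05. The T and NK cell and endothelial lists had none that could be tested, and Cd3e, Cd3g and Nkg7 had 0 reads throughout. The part of the fibroblast and leukocyte genes in the result was not tested.

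The same question was asked in E0771-LG cells, where Ptn stood at 3.97 ± 0.47 log2 CPM with shCtrl and 1.26 ± 0.25 with shPTN (mean ± SD, n = 3) and was called lower by 2.71 (SE 0.28, adjusted p = 6.3e-05). Here too Rrm1 fell, and replication genes went both ways. Cdc20 and Ube2c were called higher, though not after the correction for GC content and length described below. The clamp Pcna and the loader subunits Rfc3 and Rfc4 rose, while 3 of 6 MCM helicase genes fell. Of 10405 genes tested, 4826 (46.4%) were called, 24.3% higher and 22.1% lower. Of the members, 24 (50%) were called, which is near that background, with 57.7% of the replication and 40.9% of the mitosis genes. They were 7 replication genes higher and 8 lower, and 8 mitosis genes higher and 1 lower. Median log2 fold changes were −0.03 for replication genes, 0.20 for mitosis genes and 0.05 for all genes tested. Without shCtrl replicate 1 the replication counts were again 7 and 8, the mitosis counts were 10 and 3, and the medians were 0.06 and 0.14, so that the replication median changed its sign.

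Rrm1 read 10.14, 9.71 and 9.78 log2 CPM in the E0771-LG shCtrl samples and 8.85, 8.70 and 8.74 in the shPTN samples. All shPTN values lay far below the lowest shCtrl value, and the mean was 2.17-fold lower (log2 fold change −1.12, SE 0.11, adjusted p = 6.54e-05; −0.98 without shCtrl replicate 1). Rrm2 did not follow in either direction, with 7.97, 7.58 and 7.80 in shCtrl and 7.93, 7.73 and 7.70 in shPTN samples. Its groups overlapped and its fold change was 0.01.

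**Figure D1:**
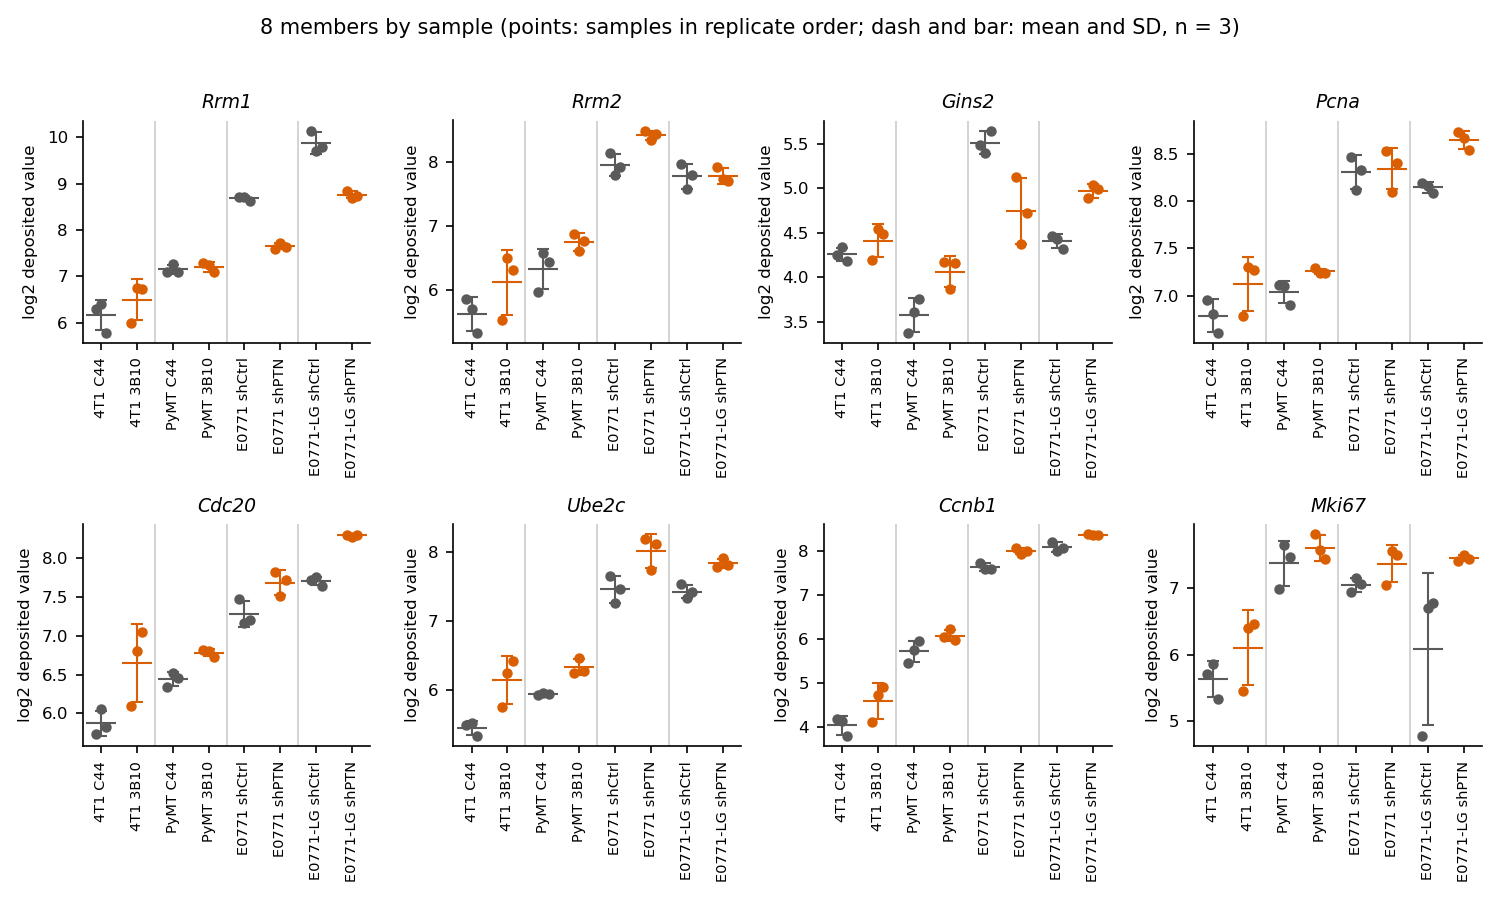
Deposited log2 values of 8 members in each of the 24 samples (log2 CPM, for 4T1 log2 values taken as normalized for gene length). The mean and SD of each group are shown (n = 3), with controls in grey and PTN-inhibited groups in orange. Rrm1 is lower with shPTN in both cell lines, at 7.65 against 8.68 in E0771 and 8.76 against 9.88 in E0771-LG, and Mki67 in E0771-LG shows the shCtrl library at 4.77.

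All 3 members of the clamp and loader group were called higher in E0771-LG, though Rfc4, like Gins1, Cdc45, Mcm2, Mcm10 and Pola1 below, lost its call with the correction for GC content and length given further on. Pcna, the ring that holds polymerases on DNA, read 8.19, 8.16 and 8.08 log2 CPM in shCtrl and 8.73, 8.67 and 8.54 in shPTN samples. Rfc3 of the loader that opens this ring read 5.43, 5.44 and 5.32 in shCtrl and 6.24, 6.11 and 5.99 in shPTN samples. Neither gene's groups overlapped, and the log2 fold changes were 0.50 (SE 0.09, adjusted p = 0.00123) and 0.72 (SE 0.11, adjusted p = 0.000512). Rfc4 rose as well (0.42). Of the other loader subunits, Rfc2 (0.43) rose, and Rfc1 (0.23) and Rfc5 (−0.03) were not called. Without shCtrl replicate 1 these were −0.16 and 0.07, again not called. Of the genes that activate the helicase, Gins2 (0.57), Gins1 (0.51) and Cdc45 (0.34) rose and Mcm10 fell by 0.40 log2 units. The helicase subunits called, Mcm6 (−0.47), Mcm2 (−0.33) and Mcm4 (−0.27), were lower, as was the licensing factor Cdc6 (−0.47). In the fit of all 24 samples no replication gene but Rrm1 was called lower. Among polymerases Pold1 of the lagging strand rose (0.40) and Pola1 fell by 0.39. Ccne2, a cyclin of S phase entry, fell by 0.67 (adjusted p = 0.00595), and E2f1 (0.10) and Ccne1 (−0.23) were not called. Without shCtrl replicate 1, E2f1 was 0.19 and Ccne1 −0.14, again not called.

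Among mitosis genes in E0771-LG, the activator and the enzyme of the anaphase-promoting complex were again called higher, but not after the correction for GC content and length, which left 0.18 for Cdc20, 0.13 for Ube2c and 0.01 for Ccnb2. Cdc20 read 7.72, 7.75 and 7.64 log2 CPM in shCtrl and 8.30, 8.27 and 8.30 in shPTN samples, a gap several times the spread within either group (log2 fold change 0.59, SE 0.08, adjusted p = 0.000379). Ube2c read 7.53, 7.33 and 7.42 in shCtrl and 7.78, 7.91 and 7.81 in shPTN samples (0.41, SE 0.09, adjusted p = 0.0051). The kinase Cdk1 (0.49) and its partners Ccnb2 (0.40) and Ccnb1 (0.27) rose, and so did the spindle genes Nusap1 (0.50), Tpx2 (0.40, or 0.25 without shCtrl replicate 1) and Kif23 (0.31). None of the 4 genes of the kinase and survivin group was called, and limma gave none of them at an unadjusted p under 0.05. Mki67 had the highest fold change of all members (1.38) and missed the threshold (adjusted p = 0.0908). Without shCtrl replicate 1 it was 0.72 and was called (SE 0.08, adjusted p = 5.79e-05). Without that library Cenpf (0.31) of the kinetochore was also called higher, and Top2a (−0.42, against −0.22 and no call with it) and the spindle motor Kif11 (−0.30) lower.

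Kif20a, a kinesin of the midzone between separating chromosomes, was the mitosis gene called lower in E0771-LG, though not in the fit of all 24 samples. It read 6.83, 7.15 and 7.10 log2 CPM in shCtrl and 6.57, 6.37 and 6.41 in shPTN samples, so the groups did not overlap (log2 fold change −0.58, SE 0.11, adjusted p = 0.00208). Its gene lies on chromosome 18, where the median of 258 genes tested was −0.47, with 9 called higher and 144 lower (−0.50, 10 and 150 without shCtrl replicate 1). In E0771 cells the median of 260 genes of that chromosome was −0.13. The part of the chromosome in the fall of Kif20a was not tested.

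**Figure D2:**
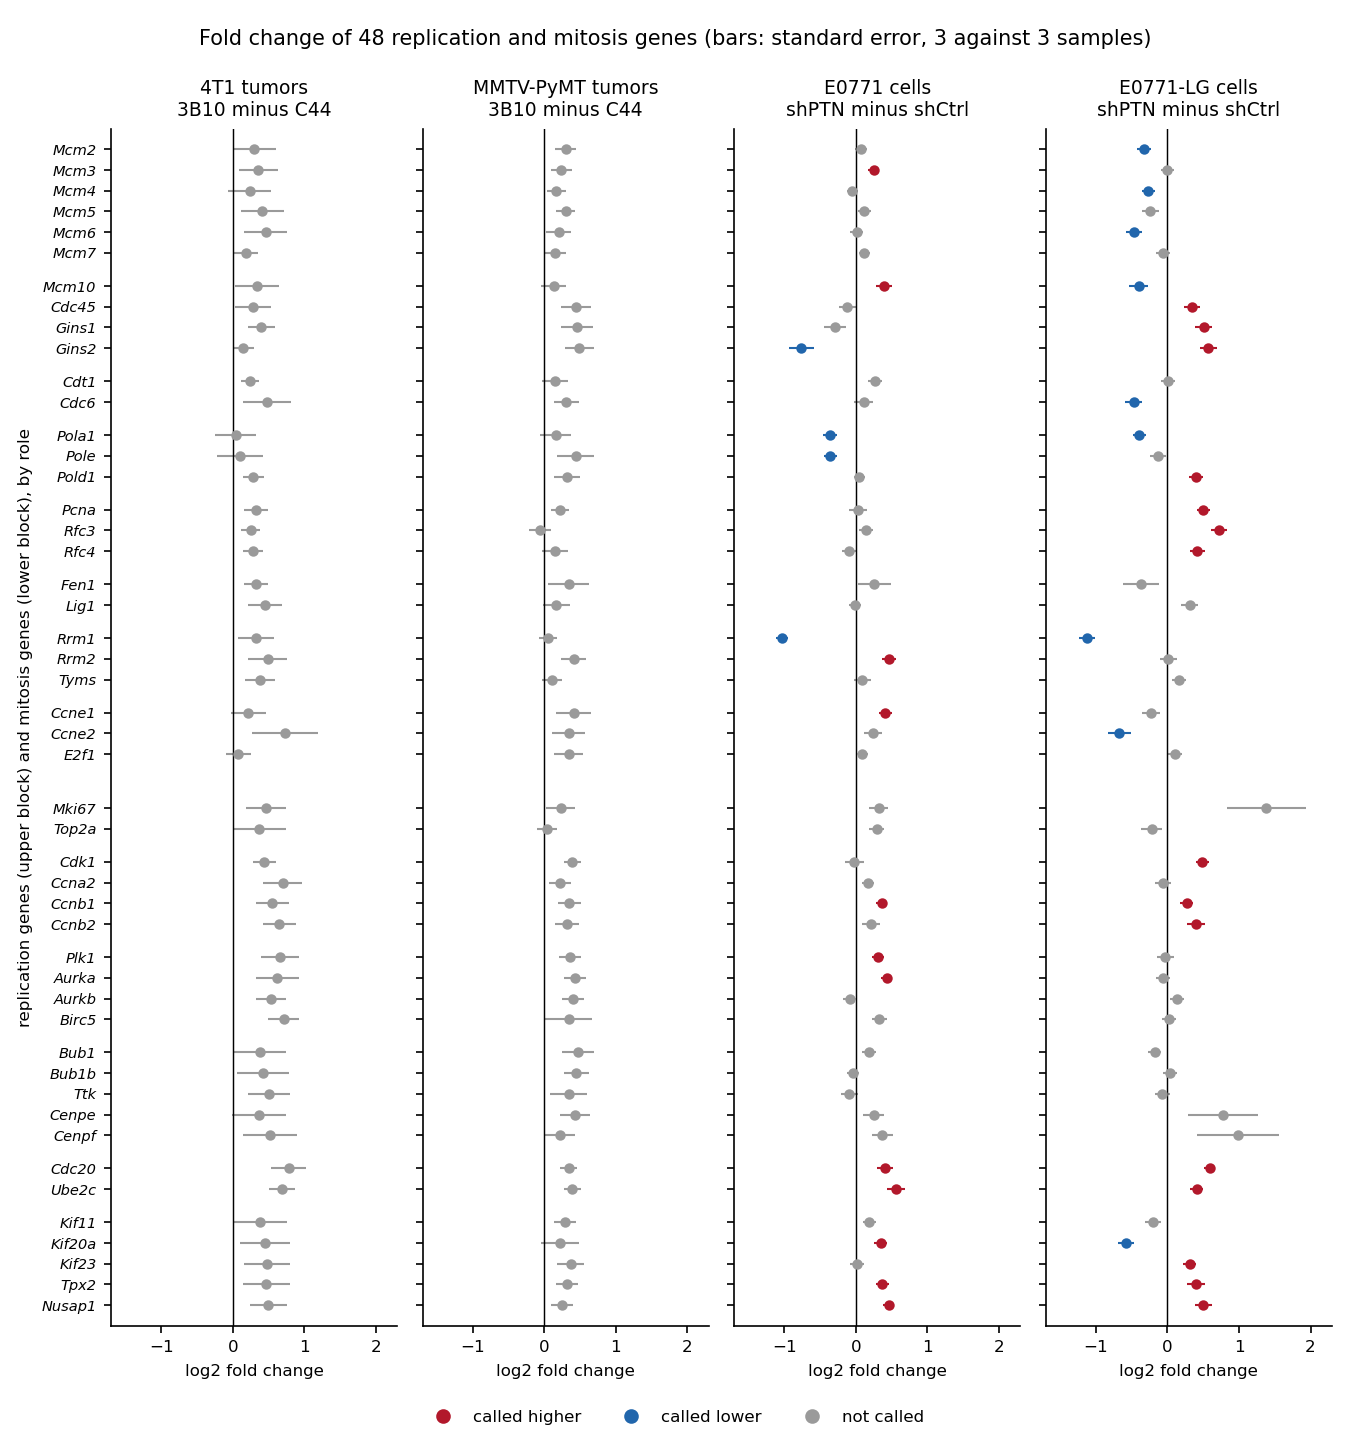
Log2 fold change of the 48 members in each experiment, with 1 standard error on each side (3 against 3 samples), ordered by role. Red and blue mark genes called higher and lower, none of them in the tumors, and 16 in E0771 and 24 in E0771-LG.

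Fold changes in E0771-LG went along with gene length. With all genes split by exon length into 4 classes, from the shortest to the longest, the median was 0.39, 0.12, −0.06 and −0.21, whereas in E0771 it was −0.01, −0.02, −0.04 and −0.06. In these classes 6, 5, 3 and 1 members were called higher and 0, 3, 2 and 4 lower, and the medians of the members were 0.40, 0.01, 0.16 and −0.20. Without shCtrl replicate 1 the medians of all genes were 0.39, 0.12, −0.06 and −0.27, and those of the members 0.39, 0.08, 0.22 and −0.27. In the class of the longest genes 3 members were then called higher and 6 lower. After a correction for GC content and length, added once this had been seen, Cdc20 (0.18, adjusted p = 0.145), Ube2c (0.13, adjusted p = 0.349), Ccnb2 (0.01), Gins1 (0.12), Rfc4 (0.05), Cdc45 (0.25), Pola1 (−0.16), Mcm10 (−0.21) and Mcm2 (−0.26) were no longer called. The corrected medians were −0.16 for replication and 0.03 for mitosis genes. Gins2, Pold1, Pcna, Rfc3, Rrm1, Cdk1 and Nusap1 kept their calls in all 17 other settings. Without shPTN replicate 2, genes called came to 3206, replication genes called lower to 4 and mitosis genes called higher to 4. Without shPTN replicate 3, both counts of members were 4 as well.

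**Figure D3:**
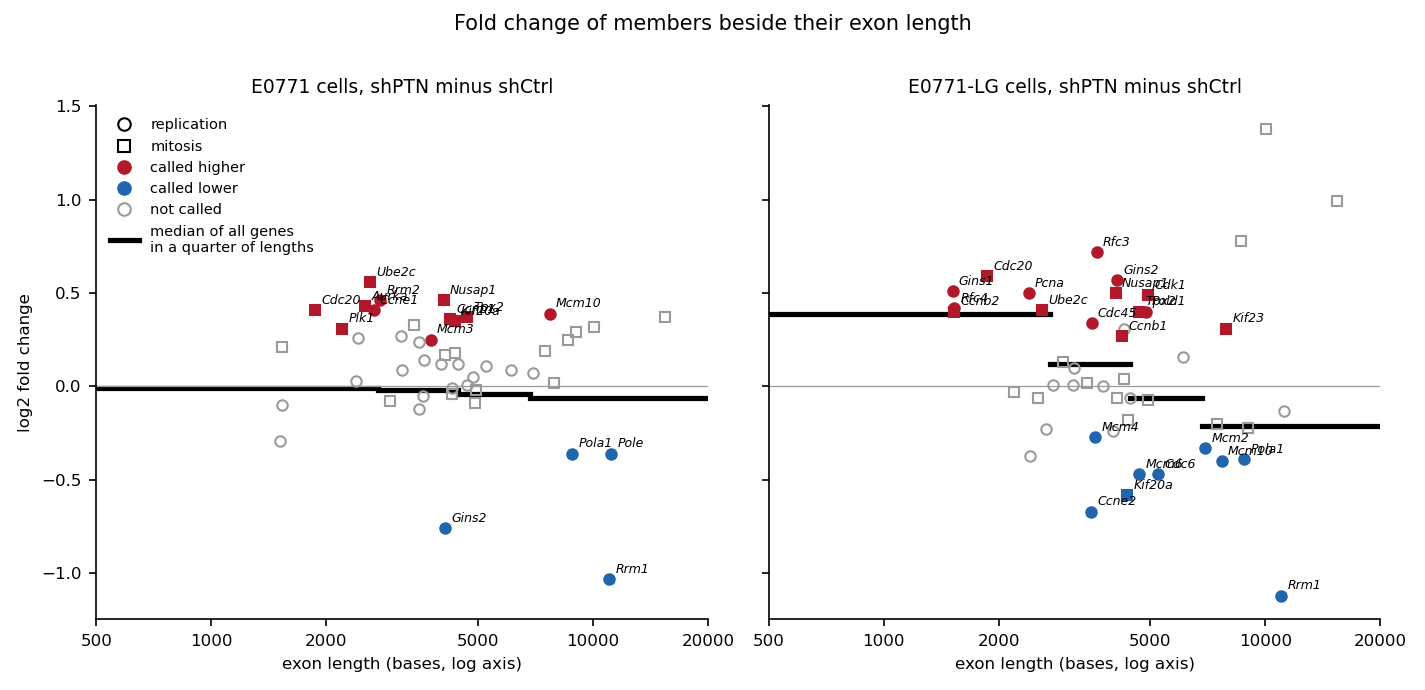
Log2 fold change with shPTN against exon length in bases for the members (circles replication, squares mitosis, filled when called), with bars at the median of all genes in each of the 4 length classes. In E0771-LG the bars step down from 0.39 to −0.21, and called members lie on both sides of them, from Rrm1 at −1.12 to Rfc3 at 0.72.

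Of the related lists, other replication genes were called in E0771-LG as often as all genes (46.3% beside 46.4%), with 16 of 41 higher and 3 lower. Rpa3 (0.84) of the protein that coats single strands, Gmnn (0.82), the inhibitor of relicensing, and Tk1 (0.76), the thymidine kinase, rose. Of 46 other mitosis genes, 17 rose and 7 fell (52.2%), with Pttg1 (1.37), the securin that guards cohesin, Dlgap5 (0.91) of the spindle and Ndc80 (0.74) of the kinetochore higher. Of the 8 genes tested of the G1 cyclins and kinases, only the D-type cyclins were called. Ccnd2 (−0.64), Ccnd3 (−0.63) and Ccnd1 (−0.46) were lower, and Myc (−0.20, adjusted p = 0.0969) was not called. Of the 17 pocket protein and E2F partner genes, 2 rose and 7 fell. Lin37 (1.02) of the DREAM complex rose, and the E2F partner Tfdp2 (−1.09), Rbl2 (−0.91) and Foxm1 (−0.62) fell. Rb1 (0.12, or −0.03 without shCtrl replicate 1) was not called. Of 6 genes tested in the kinase inhibitor list, with Wee1 and Pkmyt1 among them, 4 rose. These included Cdkn1b (0.63), Cdkn2d (1.10) and Cdkn1a (1.08, adjusted p = 0.0496), the last called in 7 of 17 other settings. Without shCtrl replicate 1 the counts were 18 and 3 of the other replication genes and 20 and 9 of the other mitosis genes. They were 0 and 3 of the G1 cyclins and kinases, 2 and 6 of the pocket protein list and 3 and 0 of the inhibitor list. Of all genes 49.3% were then called, and Cdkn1a was not (0.90, adjusted p = 0.174).

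Epithelial markers were higher with shPTN in E0771-LG. All 3 genes tested of 8 rose, namely Krt18 (3.00), Krt8 (1.57) and Epcam (0.46). Their list summed to 158, 204 and 164 CPM in shCtrl and 424, 565 and 516 in shPTN samples, with the most reads from Krt8, while Cdh1, Krt19, Krt7, Krt5 and Krt14 had at most 10 reads in each sample. Of 6 fibroblast genes tested, Dcn (1.64) rose and Col1a1 (−4.68) and Pdgfra (−0.68), with the most reads, fell. Their list summed to 92, 145 and 107 CPM in shCtrl and 58.3, 66.2 and 73.6 in shPTN samples. Leukocyte genes summed to 121, 128 and 122 CPM in shCtrl and 88.8, 108 and 113 in shPTN samples. Of 5 tested, Cd68 (2.17) and Lyz2 (1.27) rose and Laptm5 (−0.94), with the most reads, fell, with Adgre1 at 0 reads. Cd3d (1.78), Fabp4 (−2.46) and Acta1 (−1.20) were called in the T and NK cell, adipocyte and skeletal muscle lists, which summed to at most 1.99, 18.3 and 5.32 CPM in any sample. The neutrophil and endothelial lists had 1 gene each that could be tested, neither called nor at an unadjusted p under 0.05 by limma. Without shCtrl replicate 1, Epcam (0.44) and Acta1 (−0.93) were not called and Col1a1 did not pass the filter, while the other calls in these lists were kept. The part of these genes in the result was not tested.

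Whether the knockdown acted differently on the members in the line from the lung metastasis was tested by an interaction term, the fold change in E0771-LG minus that in E0771. Of the replication genes, 7 had a higher and 7 a lower effect in E0771-LG, and of the mitosis genes 1 and 2. No test compared these sets. That is 17 of 48 members (35.4%), beside 34% of all 10600 genes tested, of which 18.3% were higher and 15.7% lower. The pooled share is near the background, but it joins 53.8% of the replication genes and 13.6% of the mitosis genes. No test compared these shares with the background. The counts of replication genes rest on few libraries, with 5 and 3 without E0771 shCtrl replicate 3 or either of the E0771-LG shPTN replicates 2 and 3, and 4 and 4 without E0771-LG shCtrl replicate 3. Mitosis genes came to 1 and 5 under median-of-ratios scaling, and with all 24 samples in 1 fit to 0 and 0, beside 4 and 0 replication genes.

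Gins2 turned around between the lines. It fell by 0.76 in E0771 and rose by 0.57 in E0771-LG, an interaction of 1.33 (SE 0.22, adjusted p = 0.000537) that was called in all 23 other settings. Mcm10 and Kif20a went the other way, each called higher in E0771 and lower in E0771-LG, with interactions of −0.79 (adjusted p = 0.00397) and −0.93 (adjusted p = 0.000381). In E0771 neither was called without shPTN replicate 3, and in E0771-LG neither was called in the fit of all 24 samples. Mcm10 also lost its E0771-LG call with the correction for GC content and length. Rfc3 (0.58), Rfc4 (0.52) and Pcna (0.47) had higher effects in E0771-LG, as did Rfc2 (0.40), while the interactions of Rfc1 and Rfc5 were not called. Both E-type cyclins had lower ones, −0.92 for Ccne2 and −0.64 for Ccne1. Among mitosis genes, Cdk1 (0.51) had a higher and Aurka (−0.50) a lower effect in E0771-LG, besides Kif20a, and Kif11 (−0.39, adjusted p = 0.0543) was near the threshold. The correction for GC content and length ended the interactions of Gins1, Rfc4, Pcna, Cdc45, Pold1 and Mcm2, and that of Rrm2 (−0.45) missed the threshold without the E0771-LG shCtrl replicate 1 (−0.36, adjusted p = 0.0694). Without that library Top2a (−0.71) and Kif11 (−0.49) were called. With the correction for GC content and length the counts came to 3 higher and 8 lower among replication genes and 2 and 5 among mitosis genes, and Cdc45, Pcna and Rrm2 were called in only 10, 12 and 12 of the 23 other settings.

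Of the genes called in both lines, 7 had the same direction. Rrm1 and Pola1 were lower, and Ccnb1, Cdc20, Ube2c, Tpx2 and Nusap1 were higher, but Pola1, Cdc20 and Ube2c were not called in E0771-LG after the correction for GC content and length. In E0771, Pola1, Ccnb1, Cdc20, Ube2c and Tpx2 were not called without shPTN replicate 3, and in E0771-LG, Ccnb1 and Tpx2 were not without any 1 of the 3 shPTN replicates. Rrm1 was called in both lines in all 17 other settings. None of these 7 had an interaction that was called, and that of Rrm1 was −0.08 (SE 0.15), or 0.05 without the E0771-LG shCtrl replicate 1. Across all 10223 genes tested in both lines, 694 were called in the same and 334 in opposite directions. Called in neither line were 7 replication genes, Mcm5, Mcm7, Cdt1, Fen1, Lig1, Tyms and E2f1, and 11 mitosis genes.

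**Figure D4:**
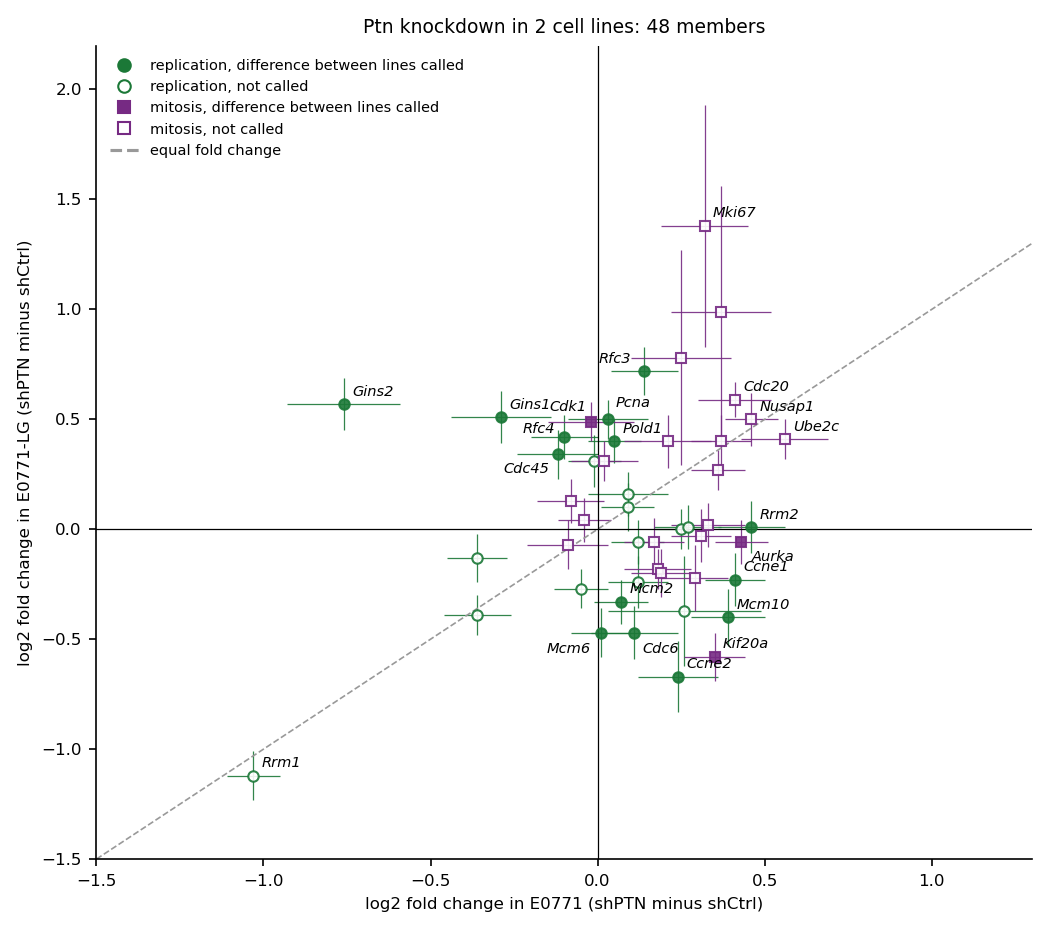
Log2 fold change with shPTN in E0771-LG against that in E0771 for the 48 members, with standard errors, the dashed line marking equal effects and filled symbols a difference between lines that was called. Rrm1 lies on the line at −1.03 and −1.12, and Gins2, at −0.76 and 0.57, lies far off it.

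How the control cells of the lines differed shows the levels from which the knockdown started. The E0771-LG shCtrl cells had more Rrm1, at 9.88 against 8.68 log2 CPM, a difference of 1.19 (SE 0.12, adjusted p = 2.87e-05), and less Gins2, at 4.41 against 5.51 (−1.11, SE 0.12, adjusted p = 5e-05). They also had more of the licensing factor Cdc6 (1.07), of Ccne2 (0.84), of the kinases Plk1 (0.87) and Ttk (0.55) and of Birc5 (0.79), the gene of survivin, and less Ccnb2 (−0.70). Of 10411 genes tested, 5676 (54.5%) were called, 19.2% higher and 35.3% lower in E0771-LG. Of the replication genes 11 were higher and 7 lower, and of the mitosis genes 7 were higher and 5 lower. The median difference of all genes was −0.15, and both median-of-ratios scaling and quantile normalization moved it to 0, so that 50.1% and 51.4% of the genes called were higher instead of 35.3%. Under median-of-ratios scaling the counts were 11 and 5 replication genes and 9 and 3 mitosis genes. All 6 MCM helicase genes were called, 4 higher and 2 lower, but the lower Mcm4 (−0.31) and Mcm7 (−0.43) were not under that scaling. Medians also differed by chromosome. They were 0.25 on chromosome 11, which holds Cdc6 and Birc5, and −0.42 on chromosome 16, which holds Mcm4. Chromosome 2, with 10 members, had −0.37, chromosome 7, with Rrm1, −0.1 and chromosome 8, with Gins2, 0. The part of the chromosomes in these differences was not tested. Without the E0771-LG shCtrl replicate 1, Mki67 (−0.31), Cenpf (−0.53), Top2a (0.54), Cdc45 and Aurkb were called as well, and Tyms was not. The control cells of E0771-LG also had more Ptn than those of E0771 (1.51, adjusted p = 0.0012). Both shCtrl groups are the ones used in the comparisons with shPTN.

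In tumors, the question is what an antibody against PTN did to these genes in a tissue of cancer and host cells. In 4T1 tumors, no gene passed the test, and all 48 members had positive fold changes. The values came with a wide spread between tumors, so none of the differences below is a call. Limma called 0 of 11467 genes (0%), so 0 of 48 members, and gave 719 genes (6.27%) at an unadjusted p under 0.05. Of all genes tested, 51.6% had positive fold changes. Medians were 0.32 for replication genes (0.04 to 0.73), 0.51 for mitosis genes (0.37 to 0.78) and 0.01 for all genes. At an unadjusted p under 0.05 there were 9 members, all of them mitosis genes: Cdk1 (0.44), Ccna2 (0.70), Ccnb1 (0.55), Ccnb2 (0.65), Plk1 (0.66), Aurkb (0.54), Birc5, Cdc20 and Ube2c.

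Cdc20 and Ube2c, called higher in both cell lines before the correction for GC content and length, had among the highest fold changes with 3B10. Cdc20 read 5.73, 6.05 and 5.83 in C44 and 6.09, 6.80 and 7.05 in 3B10 tumors, as log2 values taken as normalized for gene length. Ube2c read 5.49, 5.52 and 5.33 in C44 and 5.76, 6.25 and 6.42 in 3B10 tumors. In both genes 3B10 replicate 1 was close to the C44 tumors, and the groups did not overlap. Fold changes were 0.78 (SE 0.24) for Cdc20, 0.69 (SE 0.18) for Ube2c and 0.71 (SE 0.21) for Birc5, and the adjusted p was 0.722 for each, the lowest of any member. Mki67 read 5.71, 5.86 and 5.33 in C44 and 5.45, 6.40 and 6.46 in 3B10 tumors, so its groups overlapped through replicate 1 (0.47), and Top2a had 0.37. Among replication genes the highest value was 0.73 for Ccne2, whose groups overlapped, followed by 0.49 for Rrm2 and 0.48 for Cdc6, with 0.40 for Gins1, 0.33 for Pcna, 0.30 for Mcm2, 0.29 for Rfc4, 0.22 for Ccne1 and 0.08 for E2f1, and none was at an unadjusted p under 0.05.

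The members moved together from tumor to tumor rather than by group alone. The median deviation of the mitosis genes from their mean over the 6 tumors was −0.13, −0.03 and −0.63 in C44 and −0.33, 0.52 and 0.63 in 3B10 tumors. For replication genes it was −0.02, −0.03 and −0.44 in C44 and −0.31, 0.41 and 0.33 in 3B10 tumors. All 22 mitosis and all 26 replication genes were above their mean in 3B10 replicates 2 and 3, while 3B10 replicate 1 had 0 and 1 above it. The high tumors were thus both from 3B10-treated mice, and the low ones, C44 replicate 3 and 3B10 replicate 1, came from different groups. Without 3B10 replicate 1, 41 members were at an unadjusted p under 0.05, with medians of 0.57 and 0.81, but 0 genes were called and the lowest adjusted p of a member was 0.233. Without C44 replicate 3, the library with low values in long genes, 46 fold changes were positive, 3 members were at an unadjusted p under 0.05 and the medians were 0.22 and 0.34. Without 3B10 replicate 2 or 3 the medians were 0.20 and 0.40, or 0.22 and 0.30.

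**Figure D5:**
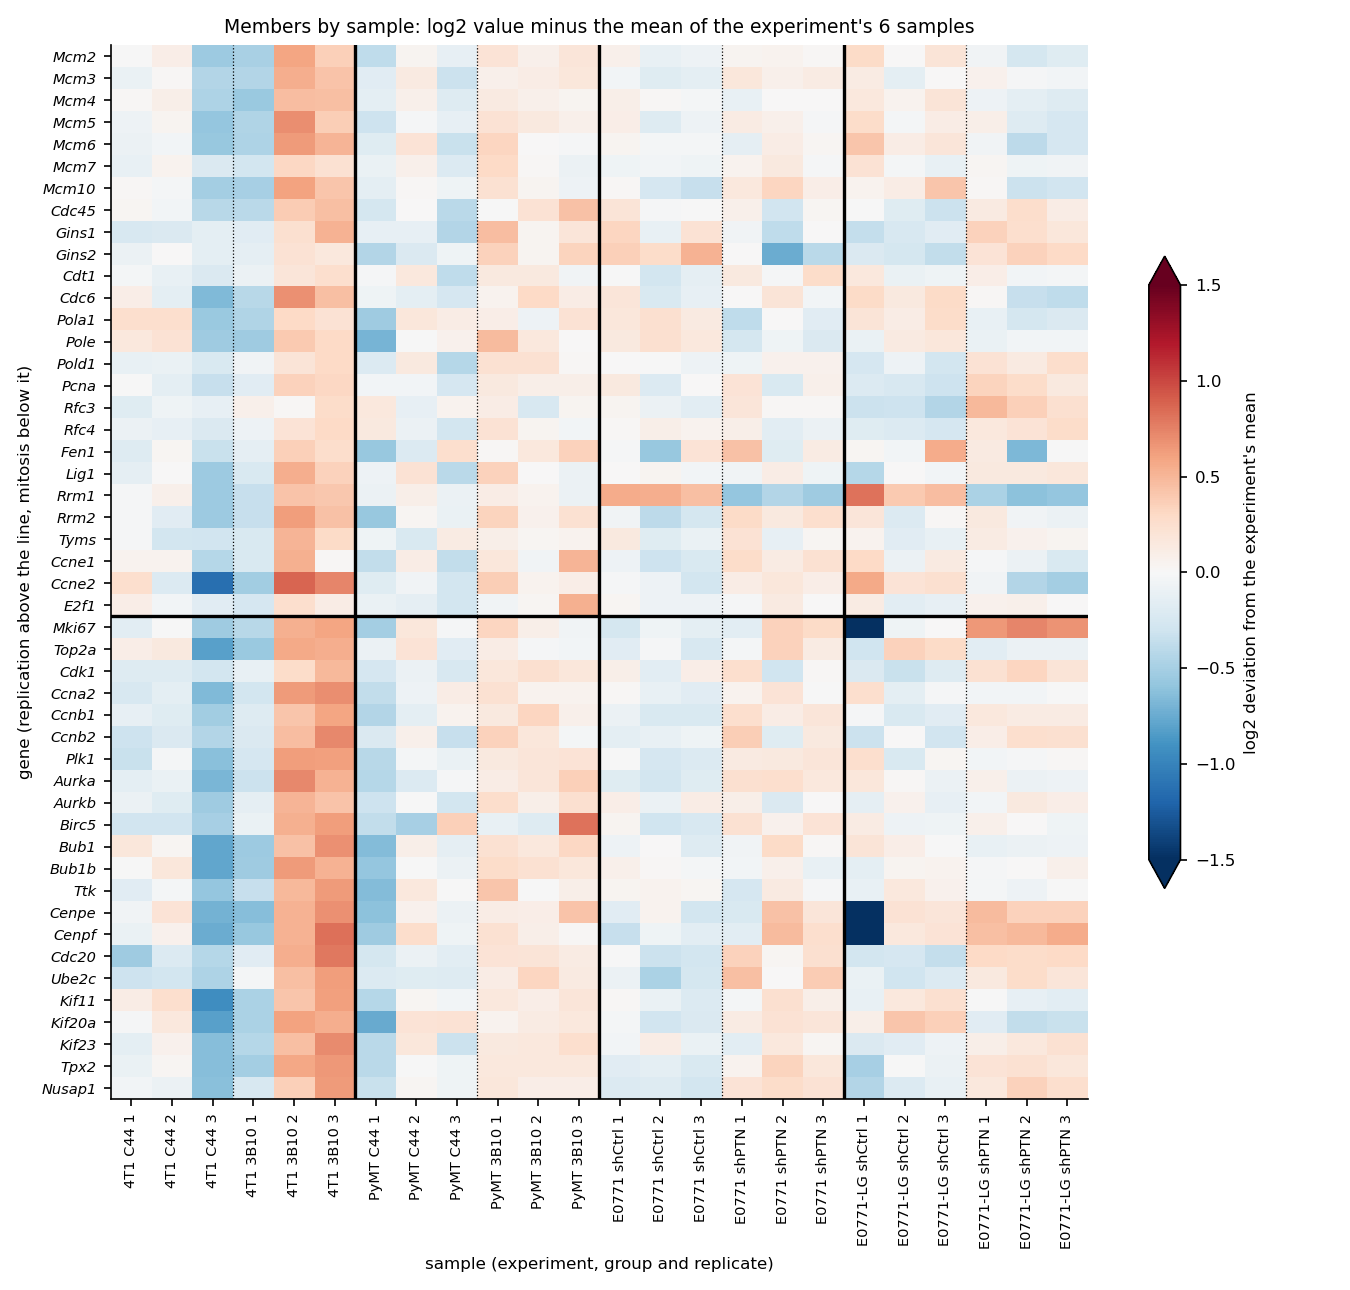
Each member's log2 value in each of the 24 samples minus its mean over the 6 samples of the experiment, replication genes above the line and mitosis genes below it. In 4T1 the 3B10 replicates 2 and 3 lie above the mean in all members, and in E0771-LG the shCtrl replicate 1 is low in Mki67, Cenpe and Cenpf.

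Markers of cell types differed between the same 4T1 tumors. All 7 epithelial genes tested of 8 had positive fold changes, 6 with an unadjusted p under 0.05, and their list summed to 3290, 3590 and 3570 in C44 and 5080, 4750 and 5270 in 3B10 tumors, with Krt18 the most abundant. All 9 leukocyte genes had negative ones, 5 at an unadjusted p under 0.05, with sums of 9780, 6810 and 8560 in C44 and 3540, 6740 and 4250 in 3B10 tumors, mostly from Lyz2. Of the T and NK cell list 6 of 9 genes were tested, all with negative fold changes (median −1.27, 5 at an unadjusted p under 0.05), and summed to 127, 150 and 141 in C44 and 111, 72.6 and 30.6 in 3B10 tumors, with Nkg7 the most abundant. The sample with the fewest dividing-cell transcripts in the 3B10 group, replicate 1, thus had the highest T and NK cell sum there, but also the lowest leukocyte sum. Of that list, Gzmb (5.48 against 3.16), Nkg7 and Cd3d were higher in replicate 1 than in replicate 2. Cd3e, Cd3g and Cd8a were lower.

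Of the neutrophil list 4 of 6 genes were tested, all with negative fold changes (3 at an unadjusted p under 0.05), and they summed to 1120, 1050 and 1880 in C44 and 1160, 734 and 579 in 3B10 tumors, with S100a9 the most abundant. Of 7 fibroblast genes 5 had positive fold changes and 2 were at an unadjusted p under 0.05. Their list summed to 1320, 1800 and 1170 in C44 and 964, 4070 and 1640 in 3B10 tumors, with Col1a1 the most abundant. All 4 endothelial genes tested had negative ones, with none at an unadjusted p under 0.05, and summed to 87.1, 212 and 121 in C44 and 93.2, 166 and 75 in 3B10 tumors (Cdh5 the most abundant). Skeletal muscle genes, 3 of 3 positive and at an unadjusted p under 0.05, summed to 12.7, 11.8 and 27.1 in C44 and 39.4, 167 and 254 in 3B10 tumors (Tnnt3 the most abundant), and adipocyte genes, with none, to 9.68, 38.3 and 45.7 in C44 and 24.8, 30.9 and 30.6 in 3B10 tumors (Fabp4 the most abundant). Limma called 0 genes of any list. At the lowest value of the sample were 1 epithelial gene in C44 replicate 1 and 3B10 replicate 3 and 1 muscle gene in C44 replicates 2 and 3. The B cell list was not analysed here. The part of these cell types in the values of the replication and mitosis genes was not tested.

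In MMTV-PyMT tumors, which arise in the mouse's own mammary epithelium, 3B10 was again compared with C44. No gene passed the test, and 47 of 48 members had positive fold changes, Rfc3 (−0.06) being the exception. Under median-of-ratios scaling 46 were positive. Limma called 0 of 11361 genes (0%) and gave 307 (2.7%) at an unadjusted p under 0.05. Of all genes, 61% had positive fold changes. Medians were 0.27 for replication genes, 0.34 for mitosis genes and 0.05 for all genes, and the adjusted p was 1 for each member. There were 8 members at an unadjusted p under 0.05, the replication gene Gins2 and the mitosis genes Cdk1, Plk1, Aurka, Aurkb, Bub1b, Cdc20 and Ube2c.

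Ube2c read 5.93, 5.95 and 5.94 log2 CPM in C44 and 6.25, 6.46 and 6.27 in 3B10 tumors of this model (fold change 0.39, SE 0.12). Cdk1 read 5.70, 5.87 and 5.71 in C44 and 6.13, 6.19 and 6.13 in 3B10 tumors (0.39, SE 0.12). In both genes all 3B10 tumors were above all C44 tumors, though neither was called. Gins2 read 3.38, 3.61 and 3.76 in C44 and 4.17, 3.87 and 4.16 in 3B10 tumors (0.49, SE 0.20), again without overlap. Rrm2 (0.41), Ccne1 (0.41), Ccnb1 (0.35), E2f1 (0.34), Mcm2 (0.30), Mki67 (0.23), Pcna (0.22) and Top2a (0.04) had positive values as well. The median deviation of mitosis genes was −0.41, 0.01 and −0.08 in C44 and 0.17, 0.14 and 0.15 in 3B10 tumors, and that of replication genes −0.16, 0.02 and −0.22 in C44 and 0.18, 0.05 and 0.09 in 3B10 tumors. C44 replicate 1 had the lowest mitosis genes. Without it the medians were 0.21 and 0.23, 45 members were positive and 3 were at an unadjusted p under 0.05. Leaving out other tumors gave 2 to 16 such members and no call.

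Cell type markers in MMTV-PyMT tumors did not part by group as in 4T1 tumors, and limma called 0 genes of any list. Epithelial genes, 3 of 8 with positive fold changes and 1 at an unadjusted p under 0.05, summed to 5730, 5530 and 3810 CPM in C44 and 4500, 4960 and 4040 in 3B10 tumors, with the most reads from Krt8. Leukocyte genes, 4 of 9 positive, summed to 491, 499 and 300 in C44 and 628, 324 and 356 in 3B10 tumors, with the most reads from Lyz2. Fibroblast genes, 0 of 7 positive, summed to 2260, 3440 and 1200 in C44 and 2250, 1690 and 1720 in 3B10 tumors, with the most reads from Col1a1. Endothelial genes (3 of 4 positive), T and NK cell genes (0 of 2), neutrophil genes (1 of 3), muscle genes (1 of 4) and adipocyte genes (2 of 2, with 1 at an unadjusted p under 0.05) summed to at most 130, 6.89, 34.5, 29.2 and 63.2 CPM in any tumor. Retnlg of the neutrophil list had at most 10 reads in each tumor. Their part in the result was not tested.

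Related genes in the tumors went with the members, again without a call. Of 41 other replication genes, 39 had positive fold changes in 4T1 and 34 in MMTV-PyMT tumors, with 6 and 1 at an unadjusted p under 0.05 by limma. All 46 other mitosis genes tested had positive ones in both models, with 8 and 5 at an unadjusted p under 0.05 and medians of 0.45 and 0.28. The lists upstream were less even. Positive values were found in 6 and 5 of 8 G1 cyclins and kinases and in 13 and 12 of 17 pocket proteins and E2F partners. In the kinase inhibitor list they were found in 4 and 5 of 8 genes. Limma gave 0 and 0, 1 and 2, and 1 and 0 of them at an unadjusted p under 0.05. Foxm1, which drives late cell cycle genes, had 0.49 and 0.37, and Cdkn1a, which halts the cycle, had −0.17 and −0.19. Myc had 0.24 and 0.23, Ccnd1 0.00 and −0.16, and Rb1 −0.41 and −0.19.

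The members did not differ between tumor models by the interaction test. Limma called 0 of 11944 genes (0%), so 0 of 48 members, and gave 320 genes but 0 members at an unadjusted p under 0.05, with an adjusted p of 1 for each member. A p that misses the threshold does not show that the models responded alike. The fold change in MMTV-PyMT minus that in 4T1 tumors had a median of −0.08 for replication and −0.21 for mitosis genes, medians that few tumors decide. They were 0.04 and −0.02 without 4T1 C44 replicate 3, −0.29 and −0.50 without 4T1 3B10 replicate 1, and 0.08 and −0.08 without 4T1 3B10 replicate 2. The members with the lowest p had −0.31 (Rfc3), 0.33 (Gins2), −0.27 (Tyms) and 0.26 (E2f1) among replication genes and −0.43 (Cdc20), −0.48 (Ccna2), −0.31 (Ube2c) and −0.33 (Ccnb2) among mitosis genes. Without the 4T1 3B10 replicate 1, 7 members were at an unadjusted p under 0.05.

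Ptn itself, the target of both reagents, can be read beside these results. The antibody acts on the protein, and Ptn RNA in MMTV-PyMT tumors read 2.80, 2.73 and 3.42 log2 CPM in C44 and 3.28, 2.95 and 4.22 in 3B10 tumors, overlapping groups (0.50, adjusted p = 1). In 4T1 tumors Ptn did not pass the filter on low values. In the cells the shPTN values were −0.63, 0.25 and 0.53 in E0771 and 1.42, 0.98 and 1.38 in E0771-LG, below the shCtrl values of 2.90, 2.18 and 2.28 and of 3.65, 4.51 and 3.74. The knockdown effect on Ptn did not differ between the lines beyond its error (interaction −0.30, adjusted p = 0.651).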

How the data were processed

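The deposited table holds log2 values of 24 samples, which the authors made from total RNA reads aligned to mm10 (GRCm38) with HISAT2, assembled with StringTie, counted with featureCounts of Rsubread and handled with edgeR and limma, without versions. In 18 samples the deposited log2 values are log2 CPM with an offset of 0.5 reads, since whole reads could be recovered from them. For the 6 samples of 4T1 tumors there were no such steps, and the values were taken as normalized for gene length. No reads were aligned here. Values were used as deposited, without further scaling. Gene lengths and GC content came from GENCODE M21 on GRCm38, and promoter sequences from RefSeq on GRCm38.p6.

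The filter took each value off its log2 scale, subtracted the sample's minimum, and passed a gene with 1 or more left in 3 or more samples. Each experiment was fitted alone with limma 3.58.1 (lmFit, eBayes with trend and robust) in R 4.3.3, 3 samples against 3. Each interaction used the 12 samples of the experiments concerned, and the comparison of control cells used its 6 shCtrl samples. All p are from limma's moderated t test. Adjusted p follow Benjamini and Hochberg over all genes tested, and called means an adjusted p under 0.05. With 3 against 3 samples an exact rank test cannot give a two-sided p under 0.1. Percentages called among all genes tested are the background beside the members. Python 3.11.15, numpy 2.4.6 and matplotlib 3.10.9 made the motif counts and figures.

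The lists of related genes were other replication genes, other mitosis genes, G1 cyclins and kinases, pocket proteins and E2F partners, and kinase inhibitors. The kinase inhibitor list also held the kinases Wee1 and Pkmyt1. The cell type lists were epithelial, leukocyte, T and NK cell, B cell, neutrophil, fibroblast, endothelial, skeletal muscle and adipocyte. The 48 members and all these lists were chosen with earlier results of these data known. Genes were named by a rule: in each experiment 14 fixed genes (Ptn, Mki67, Top2a, Cdk1, Ccnb1, Pcna, Mcm2, E2f1, Ccne1, Cdkn1a, Ccnd1, Myc, Foxm1, Rb1), the 4 called replication and 4 called mitosis genes of largest change, or the 2 of lowest p where none was called, and up to 3 called genes of each related list by size of change; in the other comparisons, the 4 of lowest p of each kind. Members and other genes named beside the rule were chosen after their values were seen. Alternatives tried were no filter, a stricter filter at 5, pseudocounts of 1 and 0.1, median-of-ratios scaling, quantile normalization, eBayes without trend and not robust, all 24 samples in 1 fit, voom on recovered reads (not for 4T1 or the interaction with it), a block for replicate number, leaving out each sample, and a correction for GC content and length (splines with 5 degrees of freedom) chosen after seeing the data.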

Additional observations from a re-analysis of the deposited data

Results flagged for a closer look

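For 17 of the 48 members, the test of the difference between lines was called by limma: the log2 fold change with shPTN in E0771-LG cells minus that in E0771 cells differed from 0 at an adjusted p under 0.05. That is 35.4% of the members, beside 34% of all genes tested. By kind it was 53.8% of the replication genes and 13.6% of the mitosis genes. After the correction for GC content and length, Gins1, Rfc4, Pcna, Cdc45, Pold1 and Mcm2 were no longer called. Among replication genes the difference was 1.33 for Gins2 (adjusted p = 0.000537), 0.80 for Gins1 (adjusted p = 0.00586), 0.58 for Rfc3 (adjusted p = 0.00754), 0.52 for Rfc4 (adjusted p = 0.00871), 0.47 for Pcna (adjusted p = 0.0346), 0.45 for Cdc45 (adjusted p = 0.0433) and 0.36 for Pold1 (adjusted p = 0.0295). It was below 0 for Ccne2 at −0.92 (adjusted p = 0.00371), Mcm10 at −0.79 (adjusted p = 0.00397), Ccne1 at −0.64 (adjusted p = 0.00548), Cdc6 at −0.58 (adjusted p = 0.0232), Mcm6 at −0.48 (adjusted p = 0.0228), Rrm2 at −0.45 (adjusted p = 0.0374) and Mcm2 at −0.40 (adjusted p = 0.0253).

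Among mitosis genes it was 0.51 for Cdk1 (adjusted p = 0.0285), −0.50 for Aurka (adjusted p = 0.00811) and −0.93 for Kif20a (adjusted p = 0.000381).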

How the results depend on the processing

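No gene named by the rule that was called took the other sign in any other setting. Without E0771-LG shCtrl replicate 1 the replication median in E0771-LG went from −0.03 to 0.06 and the interaction of Rrm1 from −0.08 to 0.05. The replication median of the interaction of 3B10 and tumor model, −0.08, was 0.04, 0.08, 0.02 and 0.01 without 4T1 C44 replicate 3, 4T1 3B10 replicate 2, 4T1 3B10 replicate 3 and MMTV-PyMT C44 replicate 2. With all 24 samples in 1 fit, genes called came to 6 in 4T1, 912 in E0771, 2368 for the interaction of knockdown and line and 1 for that of 3B10 and tumor model. In E0771, 0 replication genes were called higher, 2 lower and 1 mitosis gene higher. In E0771-LG, 1 replication gene was called lower, 5 mitosis genes higher and 0 lower. The cause was not tested.

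With eBayes without trend and not robust, 2 replication and 5 mitosis genes were called higher in E0771, 5 replication genes lower in E0771-LG, and 1 gene for the interaction of 3B10 and tumor model. The correction for GC content and length, chosen after seeing the data, gave 15 mitosis genes called higher in E0771, and 4 replication genes higher and 3 mitosis genes lower in E0771-LG. The cause was not tested.

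Leaving out 1 sample at a time, genes called ranged from 1164 to 2139 in E0771 and from 3206 to 5113 in E0771-LG, and from 0 to 4 for the interaction of 3B10 and tumor model. In E0771, replication genes called higher ranged from 1 to 4 and lower from 2 to 4, and mitosis genes called higher from 2 to 12. In E0771-LG, replication genes called lower ranged from 4 to 10, and mitosis genes called higher from 4 to 10 and lower from 1 to 3. The cause was not tested.

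A block for replicate number gave 2450 genes called in E0771 and 5012 in E0771-LG. Samples of the 2 groups share only a number.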
